A study of Mus musculus with 2 samples.

Results

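The SOX genes described here are 10 transcription factor genes, Sox1, Sox2, Sox4, Sox5, Sox6, Sox8, Sox9, Sox10, Sox11 and Sox21, and the data are the m6A sites listed inside them by GLORI. In GLORI, glyoxal and nitrite deaminate unmethylated adenosines, which are then sequenced as G, whereas adenosines that carry m6A resist and are sequenced as A. Members were chosen by name, and a site was counted for a gene when its position and strand lay inside the gene interval of GENCODE release M21 on GRCm38, the assembly that mm10 names. The series held 2 libraries of poly(A)-selected RNA, 1 of the cerebellum and 1 of the cerebrum, from a female F1r mouse at postnatal day 0. The F1r hybrid has a C57 mother and a PWK father, so both libraries carry 1 C57 and 1 PWK copy of each autosome. The gene intervals held 93 of the 79355 sites of the cerebellum library and 292 of the 188295 sites of the cerebrum library, at 314 positions in all, of which 71 were listed in both. The lists give positions and no methylation rates or read counts, so depth is unknown, and a position missing from a list may be unmethylated, not expressed or too thinly covered to pass the filters of the study. Whole tissue from 1 animal was used, so a difference between the libraries has no replicate and was not tested, and fewer cells of a type cannot be told apart from less RNA or less methylation per cell. The intervals given with shares are 95% Wilson intervals, which cover counting error over sites or adenosines only.

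The labels of the tissues were checked with region markers. All 13 forebrain genes, among them Tbr1 and Neurod6, had a listed site in the cerebrum. In the cerebellum 6 of them did, Neurod6 included. Of the hindbrain genes, 6 had a site in the cerebellum (En1, En2, Barhl1, Lhx5, Gbx2 and Pax3) and 2 in the cerebrum (Barhl1 and Gbx2), while Atoh1, Pax2, Hoxa2 and Ptf1a had none in either library. For comparison, 11583 of 20701 coding genes had a site on the longest coding isoform in the cerebrum and 8283 in the cerebellum.

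SOX proteins bind the minor groove of DNA through the HMG box, the domain that defines the family, and they act largely with partner factors that decide which genes are bound. In the nervous system SoxB1 factors such as Sox1 and Sox2 keep progenitor cells undifferentiated, Sox21 (SoxB2) counteracts them, SoxC factors (Sox4 and Sox11) act in newly formed neurons, SoxD factors (Sox5 and Sox6) shape neuronal identity and the timing of glial differentiation, and SoxE factors (Sox8, Sox9 and Sox10) specify glia and neural crest derivatives. m6A is written on messenger RNA by the METTL3-METTL14 complex, mostly at the consensus DRACH, in which D is A, G or T, R is A or G and H is A, C or T. It is typically dense near stop codons and in long exons and sparse near splice junctions. Sox1, Sox2, Sox4, Sox11 and Sox21 are intronless, with a coding isoform of 1 exon, and the other 5 members have introns, 2 each in Sox8 and Sox9, 4 in Sox10, 14 in Sox5 and 15 in Sox6.

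To show what a listed site looks like in each gene, the DRACH site found in both libraries that lay nearest to the stop codon is printed from GRCm38 on the strand of the gene, 5′ to 3′, with the 5-mer in capitals, the site at its central A and 10 nt on either side.
Sox1, chr8:12397762-12397782, + strand, 3′ UTR, 236 nt after the stop codon: ttttcatgAGACCttttgtac
Sox2, chr3:34651564-34651584, + strand, 3′ UTR, 199 nt after the stop codon: cgactagaAAACTtttatgag
Sox21, chr14:118234121-118234141, - strand, 3′ UTR, 674 nt after the stop codon: tcaaagcaAGACCttttttgg
Sox4, chr13:28951771-28951791, - strand, coding sequence, 80 nt before the stop codon: gaattcccGGACTattgcacg
Sox11, chr12:27341239-27341259, - strand, coding sequence, 26 nt before the stop codon: ctggaggcGAACTtctccgac
Sox5, chr6:143833173-143833193, - strand, 3′ UTR on exon 15 of 15, 81 nt after the stop codon: aagcacatTAACTctctcata
Sox6, chr7:115476883-115476903, - strand, 3′ UTR on exon 16 of 16, 25 nt after the stop codon: ctgaattaAAACActctgaca
Sox8, chr17:25567160-25567180, - strand, 3′ UTR on exon 3 of 3, 163 nt after the stop codon: ggatatccAAACTtctgccag
Sox9, chr11:112785617-112785637, + strand, 3′ UTR on exon 3 of 3, 117 nt after the stop codon: attcctttGGACActtttttt
The site was thus in the coding sequence in both SoxC genes and in the 3′ UTR in the other 7 genes. Sox10 had no DRACH site in either library.

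The 2 SoxC genes held the most sites on their exons. Sox4, which drives gene expression in newborn neurons, had 24 sites in the cerebellum list and 36 in the cerebrum list, 19 of them at the same position. Sox11, its closest relative, had 24 and 45, with 21 shared. Together both genes carried 42 of the 74 DRACH sites on exons of the members in the cerebellum (56.8%, interval 45.4% to 67.4%) and 59 of 143 in the cerebrum (41.3%, 33.5% to 49.5%), and 38 of the 64 found in both libraries. Per length of transcript, Sox4 had 4.38 exonic DRACH sites per kb in the cerebellum and 5.63 in the cerebrum, and Sox11 2.53 and 3.85.

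The SoxB1 and SoxB2 genes had fewer sites in the cerebellum than the SoxC genes. Sox1, a marker of neural progenitors, had 5 sites in the cerebellum list and 21 in the cerebrum list, 3 of them shared. Sox2, the pluripotency and neural stem cell factor, had 8 and 19, with 5 shared, and Sox21 had 2 and 7, with both cerebellum sites shared. All sites counted for Sox1 and for Sox2 also lie inside a long non-coding gene of the same strand, Sox1ot (23 positions) and Sox2ot (22 positions), so that they cannot be told apart from sites on those transcripts by position alone. Per kb, Sox2 had 2.43 exonic DRACH sites in the cerebellum list and 5.83 in the cerebrum list, Sox1 0.621 and 3.73, and Sox21 0.526 and 0.790.

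Among the SoxE genes, Sox9, which directs progenitors towards glia, had 10 sites in the cerebellum list and 24 in the cerebrum list, 8 of them shared. Sox8 had 5 and 15, with 4 shared. Sox10, the factor of oligodendrocyte differentiation and of neural crest, stood apart with 1 site in the cerebellum and 2 others in the cerebrum, none of them DRACH. All 52 DRACH adenosines of its longest coding isoform were missing from both lists. The SoxD genes had few sites in the cerebellum, 7 each in Sox5 and Sox6, and many in the cerebrum, 79 in Sox5 and 44 in Sox6, with 5 and 4 shared. Most of the additional cerebrum sites of these 2 genes were intronic, as described further on.

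**Figure D1:**
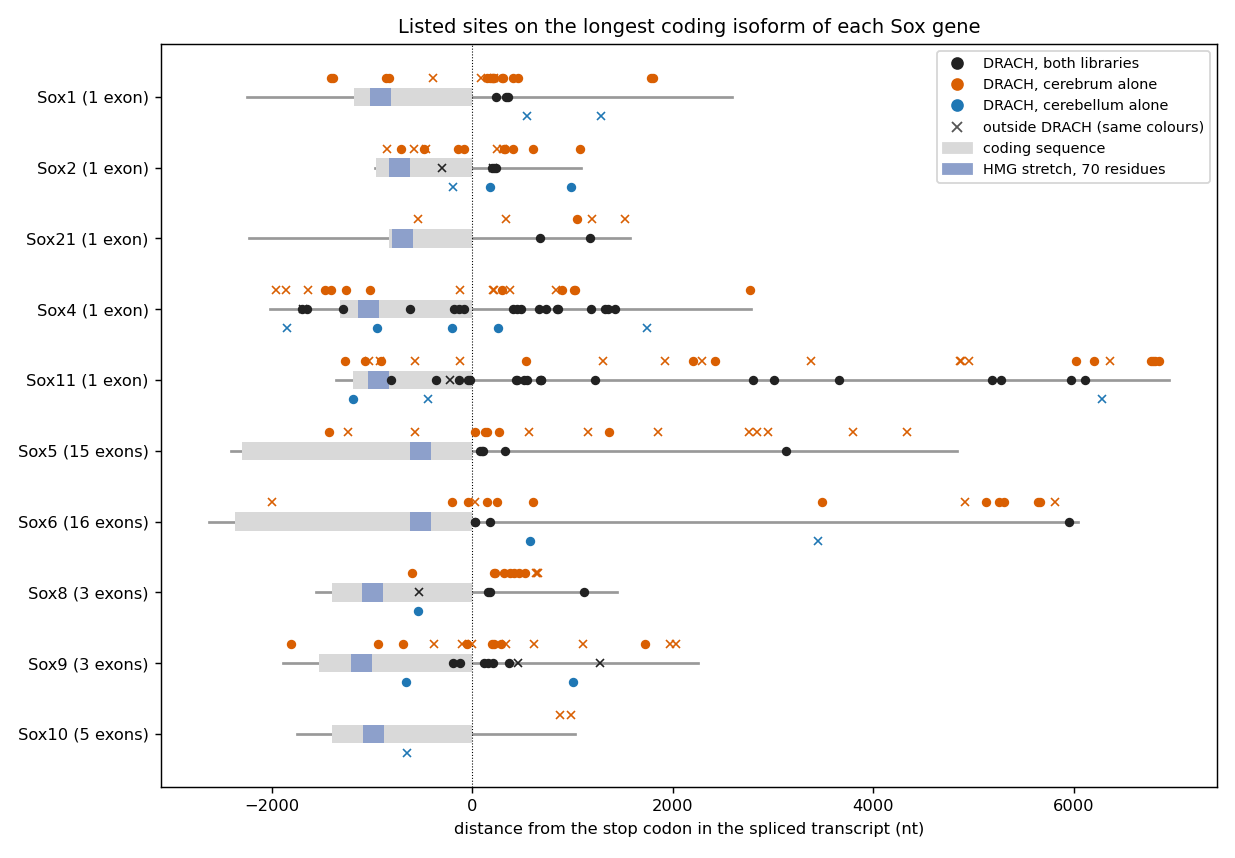
The longest coding isoform of each of the 10 Sox genes is drawn to scale in nt from the stop codon (0), with the coding sequence as a grey bar and the 70-residue HMG stretch in blue. Circles are DRACH sites and crosses are sites outside DRACH, in black for both libraries, orange for the cerebrum alone and blue for the cerebellum alone. Sox4 and Sox11 carry most of the black circles, in the coding sequence and along the 3′ UTR, Sox5 and Sox6 have none in the coding sequence, and Sox10 has no circle.

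Of the 93 sites of the members in the cerebellum, 74 were DRACH (79.6%, 70.3% to 86.5%), beside 62.1% of all sites of that library. In the cerebrum it was 148 of 292 (50.7%, 45% to 56.4%), beside 46.7% of all sites. The cerebrum share depended on where sites lay: it was 66.4% (59.8% to 72.3%) on exons of the members and 62.9% (56.2% to 69.1%) without Sox5, the member with the most sites. On the exons of the longest coding isoform alone, DRACH made up 82.2% (73.1% to 88.8%) of the members' sites in the cerebellum, beside 75.3% over all coding genes, and 68.4% (61.8% to 74.3%) in the cerebrum, beside 63.7%, and both intervals included the background. Every site of the members had an A in the reference. In the cerebellum 86.5% of the DRACH sites were also in the cerebrum list (64 of 74, 76.9% to 92.5%) and 7 of the 19 sites outside DRACH were. Over all sites of the library these shares were 81.0% and 27.7%. In the opposite direction, 64 of the 148 cerebrum DRACH sites were also in the cerebellum list (43.2%, 35.5% to 51.3%), and 7 of 144 outside DRACH (4.86%, 2.37% to 9.69%), beside 45.3% and 8.31% over all sites.

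These 7 positions outside DRACH, listed in both libraries, lay in Sox2 (2), Sox4, Sox8, Sox9 (2) and Sox11. The first 6 by gene and position are printed in the same layout because they show which letters depart from the consensus.
Sox2, chr3:34651064-34651084, + strand, coding sequence, 299 nt before the stop codon: acctacatGAACGgctcgccc
Sox2, chr3:34651577-34651597, + strand, 3′ UTR, 212 nt after the stop codon: tttatgagAGATCttgggact
Sox4, chr13:28953375-28953395, - strand, 5′ UTR, 1684 nt before the stop codon: ggcgctagAGACGatgtcgct
Sox8, chr17:25567858-25567878, - strand, coding sequence on exon 3 of 3, 533 nt before the stop codon: tttgaccaGTACTtgcccctc
Sox9, chr11:112785953-112785973, + strand, 3′ UTR on exon 3 of 3, 453 nt after the stop codon: tttagtatGTACTgtgtatga
Sox9, chr11:112786776-112786796, + strand, 3′ UTR on exon 3 of 3, 1276 nt after the stop codon: agaagtttTCATTtttttttt
In 5 of the 6 sites a single letter of the 5-mer departs from DRACH. The exception is the last, TCATT, which stands beside a run of T.

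To set genes of different length and base composition on one scale, the adenosines in DRACH 5-mers on the exons of the longest complete coding isoform were taken as the sites that could have been listed. The members had 905 of them. In the cerebellum 74 were listed (8.18%, 6.56% to 10.1%), beside 5.81% of the DRACH adenosines of all 8283 coding genes with a site in that library. In the cerebrum 143 were listed (15.8%, 13.6% to 18.3%), beside 7.65% over 11583 genes. Restricted to genes with at least 5 exonic sites, a choice made for the members after the data were seen, the share was 9.07% (7.26% to 11.3%) over 8 members in the cerebellum, beside 9.09% over all such coding genes, and 16.8% (14.4% to 19.4%) over 9 members in the cerebrum, beside 10.5%.

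The members spanned a wide range on this scale. Sox4 had 21 of 80 adenosines listed in the cerebellum (26.3%, 17.9% to 36.8%) against 27 in the cerebrum (33.8%, 24.3% to 44.6%), and 98.2% and 98.4% of the coding genes with a site had a lower share. Sox11 had 21 of 137 (15.3%, 10.2% to 22.3%) and 32 (23.4%, 17.1% to 31.1%). For Sox2 the counts were 5 of 37 (13.5%, 5.91% to 28.0%) and 12 (32.4%, 19.6% to 48.5%). Sox1 had 3 of 70 (4.29%, 1.47% to 11.9%) and 18 (25.7%, 16.9% to 37.0%). Sox9 had 8 of 81 (9.88%, 5.09% to 18.3%) and 14 (17.3%, 10.6% to 26.9%), and Sox8 had 4 of 50 (8.0%, 3.15% to 18.8%) and 11 (22.0%, 12.8% to 35.2%). The lowest shares belonged to Sox5, with 5 of 148 (3.38%) and 11 (7.43%), Sox6, with 5 of 191 (2.62%) and 15 (7.85%), Sox21, with 2 of 59 (3.39%) and 3 (5.08%), and Sox10, with 0 of 52 in both (interval up to 6.88%). In the cerebrum the order was Sox4, Sox2, Sox1, Sox11, Sox8, Sox9, Sox6, Sox5, Sox21 and Sox10, and the intervals of the first 6 overlapped each other.

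**Figure D2:**
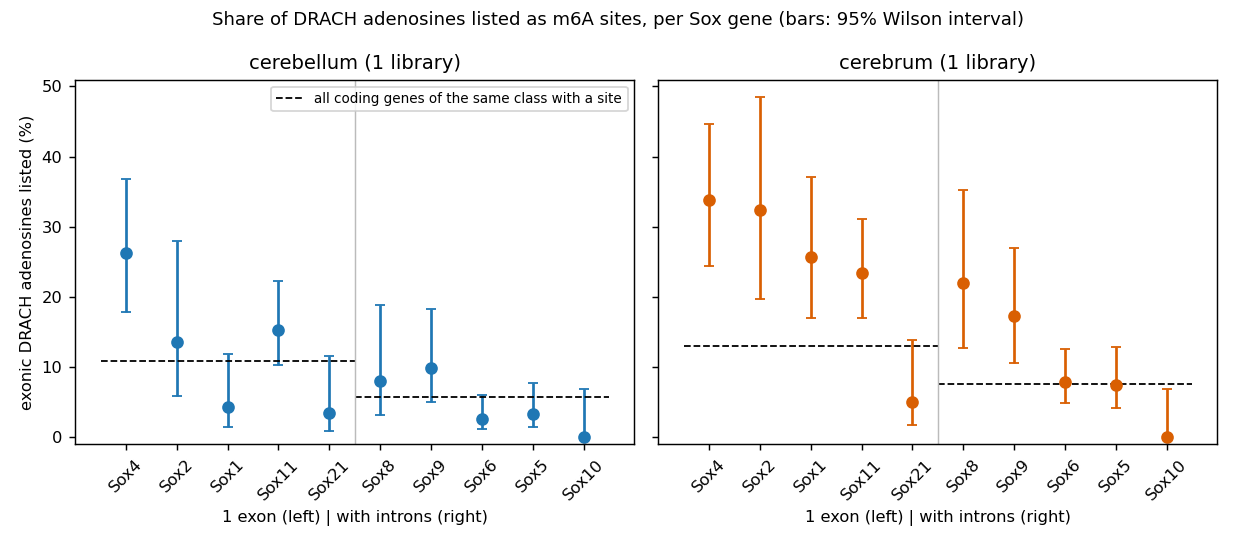
The share of exonic DRACH adenosines listed as m6A sites (%) is shown per Sox gene for the cerebellum (left, blue) and the cerebrum (right, orange), with 95% Wilson intervals. Genes with 1 exon stand left of the grey line, and the dashed lines mark the same share over all coding genes of each class with a site. In the cerebrum Sox4, Sox2, Sox1, Sox11, Sox8 and Sox9 lie above the dashed line of their class with their whole interval.

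Intronless members had the higher share. In the cerebellum 52 of their 383 DRACH adenosines were listed (13.6%, 10.5% to 17.4%), against 22 of 522 in members with introns (4.21%, 2.80% to 6.30%). In the cerebrum the counts were 92 of 383 (24.0%) and 51 of 522 (9.77%, 7.51% to 12.6%). The same order held over all coding genes with a site, with 10.9% listed in 203 intronless genes and 5.73% in spliced genes of the cerebellum, and 13.0% in 294 intronless genes and 7.55% in spliced genes of the cerebrum. Against their own class, intronless members in the cerebellum and spliced members in both libraries had an interval that included the background, and that of intronless members in the cerebrum lay above it. Without Sox4 and Sox11, a choice made after the data were seen, the share of the other 3 intronless members was 6.02% (3.30% to 10.7%) in the cerebellum, below the 10.9% of their class and inside the interval of the spliced members, and 19.9% (14.5% to 26.6%) in the cerebrum. Sox21, also intronless, had the second lowest share of the members in the cerebrum. The contrast was widest in the coding sequence, where 12 of 57 adenosines of intronless members (21.1%, 12.5% to 33.3%) and 4 of 169 of spliced members (2.37%, 0.924% to 5.93%) were listed in the cerebellum, and 20 of 57 (35.1%, 24.0% to 48.1%) and 9 of 169 (5.33%, 2.83% to 9.81%) in the cerebrum. It rested largely on the SoxC genes. All 12 cerebellum sites were in Sox4 (7 of 16) and Sox11 (5 of 10), and Sox1, Sox2 and Sox21 had none. In the cerebrum Sox4 and Sox11 had 7 each, Sox2 had 4, Sox1 had 2 and Sox21 had none. Of the 169 coding adenosines of spliced members, 108 lay within 100 nt of an exon junction. Over all spliced genes with a site it was 243564 of 343836 in the cerebellum and 324873 of 452104 in the cerebrum. Beyond 100 nt, 4 of 61 coding adenosines of spliced members were listed in the cerebellum (6.56%, 2.58% to 15.7%), beside 14.4%. In the cerebrum it was 6 of 61 (9.84%, 4.59% to 19.8%), beside 19.4%, and both intervals included the background. Over all coding genes with a site, the coding shares of intronless and spliced genes were 13.0% and 4.92% in the cerebellum and 17.0% and 6.61% in the cerebrum. In 3′ UTRs the shares of the members were 13.4% and 5.45% in the cerebellum, beside 11.0% and 6.77% over all coding genes of each class, and 23.6% and 12.4% in the cerebrum, beside 12.5% and 8.89%.

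By region of the transcript, 63 of the 90 exonic sites of the members in the cerebellum lay in 3′ UTRs (interval 59.9% to 78.5%), 22 in coding sequences (24.4%) and 5 in 5′ UTRs (5.56%). In the cerebrum there were 150 of 209 (71.8%, 65.3% to 77.4%), 47 (22.5%) and 12 (5.74%). All coding genes had 56.1% of their exonic sites in 3′ UTRs, 41.3% in coding sequences and 2.65% in 5′ UTRs in the cerebellum, and 53.5%, 43.5% and 2.95% in the cerebrum. The members' transcripts have long 3′ UTRs, up to 6957 nt in Sox11 and 6046 nt in Sox6, and 67% of their DRACH adenosines lay there, close to the share of sites. Of the DRACH adenosines of the members, 3 of 73 in 5′ UTRs (4.11%), 16 of 226 in coding sequences (7.08%) and 55 of 606 in 3′ UTRs (9.08%) were listed in the cerebellum, beside 3.16%, 5.01% and 6.86% over all coding genes with a site. In the cerebrum 8 of 73 (11.0%), 29 of 226 (12.8%) and 106 of 606 (17.5%) were listed, beside 3.97%, 6.73% and 8.97%. Sox4 was the member with the most 5′ UTR sites, 4 of the cerebellum and 8 of the cerebrum list, 2 and 4 of them DRACH.

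The listed share was high around the stop codon and in the first part of the 3′ UTR. Within 200 nt of it, 21 of 79 DRACH adenosines of the members were listed in the cerebellum (26.6%, 18.1% to 37.2%), beside 13.0% over all coding genes with a site, and 31 in the cerebrum (39.2%, 29.2% to 50.3%), beside 16.1%. Farther away the members had 6.42% (4.94% to 8.30%) and 13.6% (11.4% to 16.1%), beside 5.04% and 6.67%. Of all exonic sites of the members, 24.4% (16.7% to 34.2%) lay in the window in the cerebellum, beside 20.1% over all coding genes. In the cerebrum it was 17.7% (13.1% to 23.4%), beside 18.8%, and both intervals included the background. Sox6 had all 5 of its adenosines in this window listed in the cerebrum and 3 in the cerebellum, although its share over the whole transcript was low. Sox5 had 6 of 13 and 3 of 13, Sox9 6 of 12 and 4 of 12, and Sox11 3 of 5 in both libraries. Sox21, with 4 adenosines there, and Sox10, with 7, had none listed. Between 200 and 600 nt after the stop codon, 37 of 84 were listed in the cerebrum (44.0%, 33.9% to 54.7%), beside 14.9% over all coding genes, and 17 in the cerebellum (20.2%, 13.0% to 30.0%), beside 12.2%. In the first 600 nt of the 3′ UTR, Sox1 had 12 of 15 adenosines listed in the cerebrum and 3 in the cerebellum, and Sox8 had 9 of 12 and 2. Beyond 4000 nt, reached by Sox11, Sox6 and Sox5, 16 of 120 were listed in the cerebrum (13.3%, 8.38% to 20.6%), beside 3.25% over all coding genes, and 5 in the cerebellum (4.17%, 1.79% to 9.38%), beside 2.20%. In the cerebrum 10 of these distal sites were in Sox11 and 6 in Sox6.

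**Figure D3:**
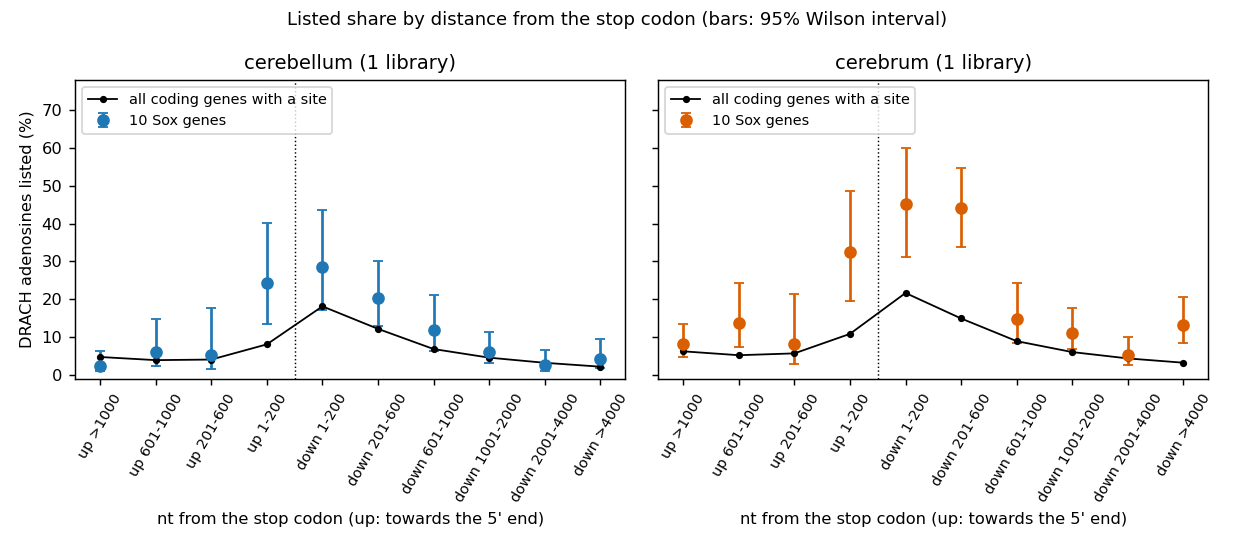
The share of DRACH adenosines listed (%) is plotted against the distance from the stop codon in nt for the cerebellum (left) and the cerebrum (right). Points are the 10 Sox genes together with 95% Wilson intervals, and the black line joins the values over all coding genes with a site. Both rise at the stop codon, where the members reach 28.6% in the cerebellum and 45.2% in the cerebrum in the first 200 nt after it.

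Adenosines close to splice junctions were nearly absent from the lists. In members with introns, 0 of 122 DRACH adenosines within 100 nt of an exon junction were listed in the cerebellum (interval up to 3.05%) and 3 in the cerebrum (2.46%, 0.840% to 6.98%). The background was 1.13% and 1.74%. Farther from a junction, 22 of 400 were listed in the cerebellum (5.5%, 3.66% to 8.19%), beside 8.25% over all spliced genes, and 48 in the cerebrum (12.0%, 9.17% to 15.6%), beside 10.9%. All 22 exonic DRACH sites of spliced members in the cerebellum and 48 of 51 in the cerebrum (94.1%, 84.1% to 98.0%) lay on the last exon, which holds 72.4% of the DRACH adenosines of these members. Over all spliced genes with a site the last exon held 73.7% of the listed sites and 56.2% of the adenosines in the cerebellum, and 73.3% and 55.5% in the cerebrum. Within the last exon, 5.82% (3.87% to 8.65%) and 12.7% (9.71% to 16.4%) of the members' DRACH adenosines were listed, beside 7.52% and 9.97% over all spliced genes. The long many-exon coding sequences of Sox5 and Sox6 hold 40 and 53 DRACH adenosines, of which none was listed in the cerebellum and 1 and 2 were in the cerebrum. Sox9, with 3 exons, had 3 of 27 coding adenosines listed in the cerebellum and 5 in the cerebrum.

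Different DRACH 5-mers were listed at different rates. GGACT was listed at 12 of 48 adenosines of the members in the cerebellum (25%, 14.9% to 38.8%) against 26 in the cerebrum (54.2%, 40.3% to 67.4%), beside 14.7% and 19.9% over all coding genes with a site. AGACT followed in the cerebrum with 16 of 41 (39.0%, 25.7% to 54.3%), beside 15.8%, and GAACT with 12 of 34 (35.3%, 21.5% to 52.1%), beside 17.1%. GGACA reached 28.8% and GGACC 23.8% in the cerebrum, beside 12.4% and 9.26%. In the cerebellum GGACA lay below its background, with 6.85% (2.96% to 15.1%) beside 8.92%. The share of AGACT there was 14.6% beside 12.6%, that of GAACT 23.5% beside 13.7% and that of GGACC 14.3% beside 6.59%. In the cerebrum GAACC had 1 of 42 listed (2.38%, 0.422% to 12.3%), beside 3.94%, and the interval included the background. Also in the cerebrum, 0 of 38 were listed for AAACC, 0 of 51 for TGACC, 0 of 34 for TAACA and 0 of 15 for TAACC. The background of these 5-mers was itself low, at 1.03%, 1.55%, 1.20% and 0.461%, so the zeros do not set the members apart. The remaining 5-mers lay above background there. Of the listed DRACH sites, 24 of 74 in the cerebellum and 47 of 143 in the cerebrum lay within 20 nt of another. The median gap between neighbours in a gene was 139 nt in the cerebellum against 75 nt in the cerebrum. Spacing was not computed over all coding genes, so these values cannot be called particular to the members.

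The HMG box is the most conserved part of the proteins. A stretch of 70 codons from the start of the box was identical between Sox4 and Sox11 at 66 residues, between Sox8 and Sox9 at 69 and between Sox1 and Sox2 at 67. It held 32 DRACH adenosines over the 10 members, of which 1 was listed in the cerebellum (3.13%, 0.554% to 15.7%) against 5 in the cerebrum (15.6%, 6.86% to 31.8%). In the rest of the coding sequences the share was 7.73% (4.74% to 12.4%) and 12.4% (8.46% to 17.7%), so the intervals overlapped. The cerebellum site was in Sox4, at codon 65 of the stretch. Those of the cerebrum were at codons 54 and 62 of Sox1, 38 of Sox2 and 42 of both Sox4 and Sox11. Downstream of the stretch 14 of 93 adenosines were listed in the cerebellum (15.1%, 9.18% to 23.7%) against 20 in the cerebrum (21.5%, 14.4% to 30.9%). In the cerebellum these were in Sox4 (5 of 10), Sox11 (5 of 7), Sox9 (3 of 16) and Sox8 (1 of 16). In the cerebrum they were in Sox4 (4 of 10), Sox11 (5 of 7), Sox9 (5 of 16), Sox2 (3 of 9), Sox6 (2 of 4) and Sox8 (1 of 16). Upstream of the stretch, where the long N-terminal parts of Sox5 and Sox6 lie, the shares were 0.990% and 3.96%. Over all coding genes with a site, 5.01% and 6.73% of the coding DRACH adenosines were listed. No HMG adenosine of Sox5, Sox6, Sox8, Sox9, Sox10 or Sox21 was listed, including codon 32, where Sox8, Sox9 and Sox10 all have a DRACH 5-mer, and codon 62, where these 3 genes and Sox4 do.

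**Figure D4:**
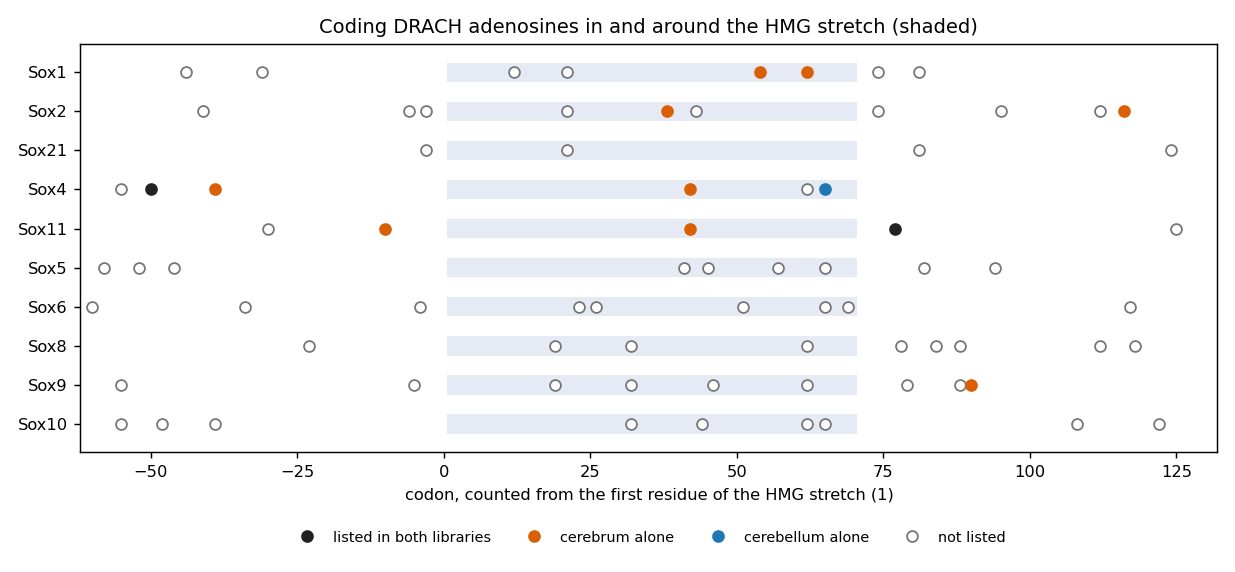
Coding DRACH adenosines of the 10 Sox genes are placed by codon, counted from the first residue of the HMG stretch, whose 70 codons are shaded. Filled circles were listed (black in both libraries, orange in the cerebrum alone, blue in the cerebellum alone) and open circles were not. Inside the shading, 5 circles are orange and 1 is blue, and both Sox4 and Sox11 have an orange circle at codon 42.

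Closely related members were then aligned by protein to see whether listed positions fell at the same codon, a comparison chosen after the sites had been seen and not tested. Sox4 and Sox11, identical at 196 of 363 aligned residues (54.0%), shared 3 DRACH positions. At 2 of them the adenosine was listed in both genes. The first is codon 42 of the HMG stretch, in the cerebrum list of both genes, and the second lies 131 nt before the stop codon, near the end of the coding sequence, listed in both libraries in both genes. The latter is followed 6 nt downstream, 125 nt before the stop codon, by a GGATT outside DRACH that was listed in the cerebrum in both genes. The aligned stretches of 27 nt on the strand of each gene, with the 5-mer in capitals, show how much of the flanks is shared.
Sox4 codon 102, adenosine at chr13:28952717, - strand: aagctgctcaaGGACAgcgacaagatt
Sox11 codon 92, adenosine at chr12:27342134, - strand: aagatgctgaaGGACAgcgagaagatc
Sox4 codon 397, adenosine at chr13:28951832, - strand: gcgctcgatcgGGACCtggattttaac
Sox11 codon 352, adenosine at chr12:27341354, - strand: ctggtggataaGGACCtggattccttc
Sox4 codon 375, adenosine at chr13:28951898, - strand: ctgctcgacctGAACCccagctcaaac
Sox11 codon 323, adenosine at chr12:27341441, - strand: gacctgagcttGAATTtctcccagggc
In the last pair the 5-mer is DRACH in Sox4, where it was listed in the cerebellum alone, and is outside DRACH in Sox11, where it was listed in both libraries. The remaining shared DRACH position, GGACT at codon 21 of Sox4 and GGACA at codon 20 of Sox11, was listed in Sox4 in the cerebrum and not in Sox11. In the other pairs no shared DRACH position was listed in both genes. Of 3 in Sox1 and Sox2 none was listed in either, and of 11 in Sox5 and Sox6 1 was listed in Sox5. Of 7 in Sox8 and Sox9 2 were listed in Sox8. Of 6 in Sox8 and Sox10 2 were listed in Sox8, and of 8 in Sox9 and Sox10 1 was listed in Sox9. Sox10 had no DRACH site listed, so its pairs could not have a joint position. The other pairs also differed in how often a joint listing could arise. In the cerebrum 7 of 16 coding DRACH adenosines were listed in Sox4 and 7 of 10 in Sox11. The counts were 2 of 10 in Sox1, 4 of 15 in Sox2, 1 of 40 in Sox5, 2 of 53 in Sox6, 1 of 22 in Sox8 and 5 of 27 in Sox9.

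Between the libraries, exonic DRACH sites of the members were more numerous in the cerebrum list in 9 of 10 genes, and Sox10 had none in either. Over all coding genes the cerebrum list held 1.71 times as many, with a median ratio of 1.40 over the 2812 genes with at least 5 such sites in the cerebellum. Sox4 with a ratio of 1.29 and Sox11 with 1.52 lay near that median, and Sox9 had 1.75. Sox5 had 2.20, Sox2 2.40 and Sox6 3.0, above 88.5%, 92.1% and 97.3% of those genes. Each of these had 5 such sites in the cerebellum, the minimum for the comparison, so the ratios rest on small counts. Sox1, with 3 against 18 sites, Sox8, with 4 against 11, and Sox21, with 2 against 3, fell under the minimum. In the cerebellum list 10 exonic DRACH sites of 6 members (Sox2, Sox4, Sox6, Sox8, Sox9 and Sox11) were missing from the cerebrum list.

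**Figure D5:**
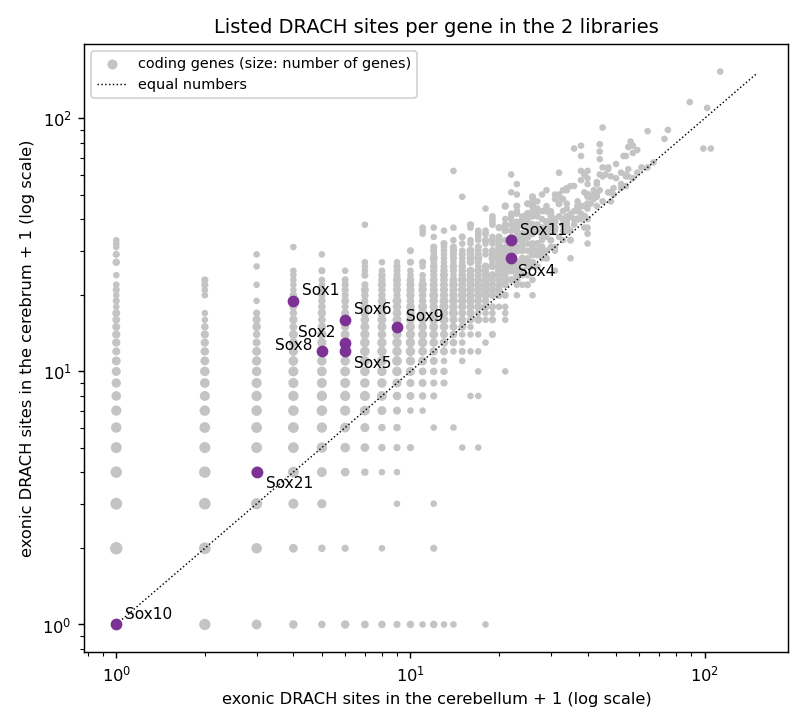
Exonic DRACH sites per gene in the cerebellum (x axis) and the cerebrum (y axis) are plotted as the number plus 1 on log scales, with all coding genes with a site in grey and the 10 Sox genes in purple, and the dotted line marks equal numbers. Sox4 and Sox11 lie among the genes with the most sites in both libraries, Sox1 lies far above the line with 3 and 18 sites, and Sox10 sits in the lower left corner.

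Introns held 3 sites of the members in the cerebellum and 75 in the cerebrum, and none of these 78 positions was in both lists. Over all coding genes, 10.9% of the intronic sites of the cerebellum and 3.17% of those of the cerebrum were in both. The intronic sites of the members all lay in Sox5 and Sox6, whose intervals span 953553 and 567925 bp. In the cerebrum Sox5 had 52 of them and Sox6 23. DRACH made up 4 of the 75 (5.33%, 2.09% to 12.9%), beside 12.4% of the sites in introns of all coding genes in that library, and 0 of the 3 in the cerebellum. A further 8 cerebrum sites of Sox5 (6) and Sox6 (2) fell on exons of other transcripts, 1 of them DRACH. On the exons of the main isoform the sites outside DRACH were 16 of 90 in the cerebellum (17.8%) and 66 of 209 in the cerebrum (31.6%), beside 24.7% and 36.3% over all coding genes, and 6 of the 66 were in the 5-mer AAAAA.

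Of the other SOX family genes, Sox12, the third SoxC gene and also intronless, had 8 sites in the cerebellum list and 15 in the cerebrum list, with all 8 shared. Sox14, a SoxB2 gene, had 11 sites in the cerebellum, 10 of them DRACH, and 0 in the cerebrum. Sox7 had 0 and 1, Sox17 0 and 2 and Sox18 0 and 1, and Sox3, Sox13, Sox15, Sox30 and Sry had none in either list. POU factors, which bind DNA beside SOX proteins in neural cells, had 64 sites in the cerebellum list and 149 in the cerebrum list: Pou3f1 had 2 and 15, Pou3f2 11 and 25, Pou3f3 27 and 60, Pou3f4 8 and 12 and Pou2f1 16 and 37. Of their DRACH adenosines 8.46% (6.48% to 11.0%) and 14.4% (11.8% to 17.4%) were listed, beside 8.18% and 15.8% in the members. Over all coding genes with a site it was 5.81% and 7.65%, and over intronless ones 10.9% and 13.0%. Pou3f1, Pou3f2, Pou3f3 and Pou3f4 have 1 exon, so the intronless share is the nearer background for them. Among the other SOX family genes no DRACH adenosines were counted for Sox3 and Sry. The rest, genes without a site included, had 4.74% (3.02% to 7.36%) and 3.95% (2.41% to 6.41%) listed. Every member and every gene of the coding background had a site, so these shares are not directly comparable with theirs. In the cerebellum all listed DRACH adenosines of the other SOX genes were in Sox12 (8) and Sox14 (10), and in the cerebrum in Sox12 (14) and Sox7 (1). The 10 known SOX targets, again with genes without a site included, had 3.82% (2.81% to 5.18%) and 5.98% (4.68% to 7.61%) listed. Among genes known as SOX targets in neural and glial cells, the progenitor filament gene Nes had 0 sites in the cerebellum list and 7 in the cerebrum list, the glial factor genes Olig2 and Nfia had 5 and 10 and 20 and 109, the radial glia gene Fabp7 had 1 and 2, and the neuronal genes Dcx and Tubb3 had 17 and 35 and 10 and 12. The myelin gene Mbp had 5 and 9. Myrf and Erbb3, which like Mbp are targets of Sox10, had none in either list. Sox2ot, the non-coding gene around Sox2, had 21 sites in the cerebellum list and 136 in the cerebrum list, those inside Sox2 included.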

How the data were processed

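GLORI was carried out on 1 cerebellum and 1 cerebrum sample. Per the study's methods, the authors ran GLORI-tools against mm10 and against a version of mm10 with PWK bases at SNPs, joined both outputs and kept sites above a minimum methylation rate and read count. The other unit here is a position: the deposited lists hold chromosome, position and strand, and 0 methylation rates, so depth is unknown. A filter on reads favours expressed genes. The name of the cerebrum list carries the abbreviation used for the cerebellum, and tissues were taken from the labels.

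Sequences came from GRCm38 and gene models from GENCODE M21. The longest coding isoform with complete ends was used for each of 20701 genes, and its sequence was identical to the released transcript in all of them. The HMG stretch of 70 codons started at the family motif RPMNAF in the translated sequence. Proteins were aligned globally (BLOSUM62, gap opening 10, extension 0.5). Every member is named, and the sites printed are the shared DRACH site nearest to the stop codon and up to 6 shared sites outside DRACH. Members and gene lists were chosen with earlier results of these data known. Some genes of the lists are not reported here. No test was made. Python 3.11.15, pandas 2.3.3, scipy 1.17.1, pysam 0.24.0, biopython 1.88, samtools 1.23.1 and matplotlib 3.10.9 were used, and the steps were tested on simulated data.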

Additional observations from a re-analysis of the deposited data

How the results depend on the processing

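No paired analysis was possible because each tissue has 1 library, and no library could be left out. Of 92 values under other settings, 71 stayed inside the interval of the reported value or within 1.5 times a reported count. Some of these could not move. Every site had an A in the reference, so requiring an A changed nothing, and leaving out Sox11 does not touch the spliced members. The count is therefore not a measure of robustness. With DRACH sites alone the cerebrum count was 148 in place of 292. With RRACH, the DRACH share was 66.7% (cerebellum) and 43.8% (cerebrum), the listed share of the members in the cerebrum 18.8%, that of all coding genes 6.62% and 8.72%, and that of the HMG stretch in the cerebellum 0, as also with a stretch of 60 codons. On exons, the cerebrum DRACH share was 66.4%, and without Sox5 62.9%. All coding genes had 5.51% and 7.28% listed over the union of coding exons, and 9.09% and 10.5% with at least 5 sites per gene. A stop codon window of 400 nt held 38.9% and 35.9% of the sites. Sites shared between libraries rose to 86.5% of the cerebellum and 43.2% of the cerebrum with DRACH sites alone, and to 32.7% of the cerebrum on exons. Without Sox4 and Sox11, added after seeing the data, intronless members had 6.02% and 19.9% listed. Unknown depth limits every statement on a missing site.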
